A study of Mus musculus with 20 samples.

Results

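An RNA immunoprecipitation study of mouse CD8 T cells deposited 20 sequencing runs, of which 9 have counts that stand beside their own row names. Of these 9 runs, 5 had more than 30% of their counts in the 3′ UTR row of Lars2, the gene of mitochondrial leucyl-tRNA synthetase. These runs were chosen by that measured share, and they fell into 3 runs named D1 and 2 runs named RIP8. The Lars2 row was then dropped, and every other 3′ UTR was compared between the 3 D1 runs and the 2 RIP8 runs. The D1 runs were labelled wild-type (WT) input, Cpeb4 knockout (KO) input and WT immunoprecipitate (IP), all of sequencing batch 2. The RIP8 runs were labelled WT input of batch 1 and KO input of batch 2. Both sets therefore mix genotypes, and no genotype was compared. All cells came from C57BL/6 spleen and lymph nodes, were purified on CD8 beads, were kept at 5% O2 and were activated for 48 h with anti-CD3 and anti-CD28 at 1 μg/ml each and IL-2 at 20 ng/ml. Input RNA was selected for poly(A) tails and amplified for 12 PCR cycles, whereas IP RNA was not selected and was amplified for 7 cycles. The labels give no age or sex and do not say whether D1 and RIP8 came from separate animals, and the p-values below therefore reflect run-to-run spread alone, which may be technical.

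CPEB4, the protein the study precipitated, binds cytoplasmic polyadenylation elements in 3′ UTRs and alters the poly(A) tail and translation of its targets. Type I and type II interferons act through receptors and JAK kinases on STAT transcription factors. These factors switch on GTPases, nucleases, ubiquitin ligases and other antiviral genes. CD8 T cells stimulated through CD3 and CD28 grow, divide, take up more glucose and iron, raise glycolysis and display IL-2 and costimulatory receptors.

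The Lars2 share ran from 34.8% (95% Wilson interval 34.7 to 34.9%) in the RIP8 WT input run to 50.1% (49.9 to 50.2%) in the D1 KO input run. In the other 11 runs the Lars2 share cannot be read, and they were not used. The nearest usable run below the threshold, labelled D1 KO IP of batch 3, had 5.40%. Without that row the D1 runs held between 192134 and 202633 counts over 10801 to 10911 detected UTRs. The RIP8 WT input and KO input runs held 317395 and 285464 counts over 11323 and 11248 UTRs. Levels below are CPM, counts scaled to a total of 1000000 without the Lars2 row. D1 values are listed in the order WT input, KO input, WT IP, and RIP8 values in the order WT input, KO input. Intervals on shares and counts cover counting error only, since PCR copies are not independent molecules.

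**Figure D1:**
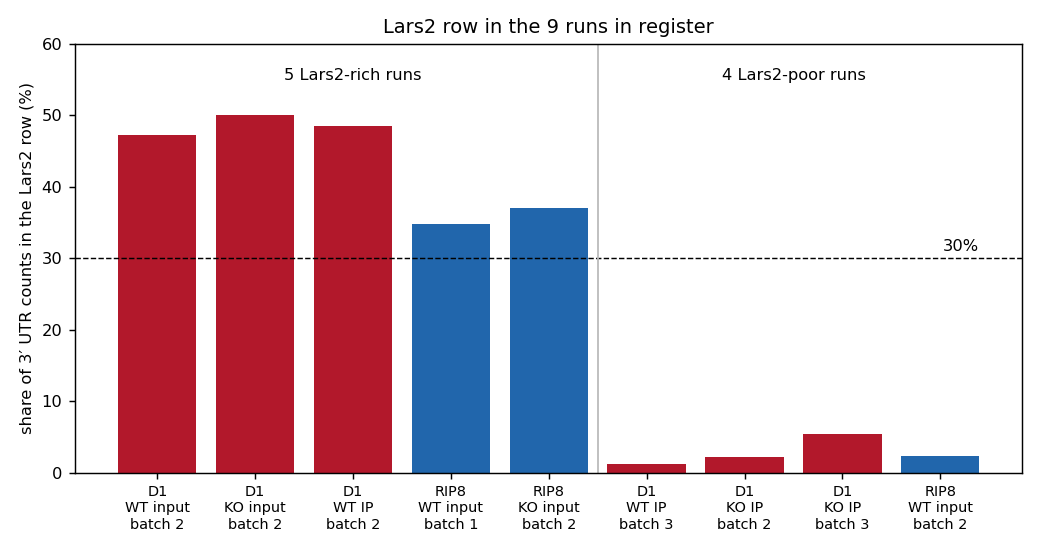
Share of 3′ UTR counts in the Lars2 row (vertical axis, %) in the 9 runs whose counts match their row names, with D1 in red and RIP8 in blue. The 5 runs left of the grey line lie between 34.8 and 50.1%, above the dashed line at 30%, and the 4 runs right of it lie at 5.40% or less.

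The 3 D1 runs, each with a label of its own, differed little from each other. Pairs of runs were compared by chi-square per degree of freedom over UTRs with at least 20 summed counts, which is about 1 where counting alone makes them differ. It was 1.12 for D1 WT input against KO input, 1.05 for WT input against WT IP and 1.09 for KO input against WT IP. These values exceeded counting noise (chi-square p = 1.88e-08, 0.00665 and 3.21e-05). The runs were kept as 3 by their labels, since these p-values do not show whether the runs are separate libraries. The RIP8 pair gave 1.39. The 6 pairs of a D1 run with a RIP8 run gave 4.25 to 4.96, and 3.95 to 4.50 after every run was thinned to 192000 counts. This separation was known when the sets were chosen and is a description.

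Cpeb4, the targeted gene (3′ UTR start at 31931533 on chromosome 11, mm10), was detected in every run. It had 125, 110 and 123 CPM in the D1 runs and 195 and 126 CPM in the RIP8 runs, from 24, 22, 25, 62 and 36 counts. The KO-labelled run was the lowest of each set. In D1 it lay inside the 95% counting interval of the WT input run (80.0 to 186 CPM), and in RIP8 it lay below that of the WT input run (149.8 to 250.4 CPM). The interval of the RIP8 KO input run itself (88.3 to 174.6 CPM) overlapped the latter, and the RIP8 runs also differ in sequencing batch. No genotype difference is read from these counts. Cpeb4 was not called between the sets (log2 difference D1 minus RIP8 −0.47 ± 0.24 SE, adjusted p = 0.13). The labels do not give the deleted stretch, so a 3′ UTR count need not show the deletion.

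The runs had the markers of T cells. Cd8a, a chain of the CD8 coreceptor, had 1176, 1439 and 1273 CPM in D1 and 1109 and 1016 CPM in RIP8, so its sets were apart but close (log2 difference 0.25 ± 0.09, adjusted p = 0.0321). Cd3e, a signalling chain of the T cell receptor complex, had 297, 350 and 311 CPM against 523 and 504 CPM and was lower in D1 (−0.72 ± 0.15, adjusted p = 0.000191). Markers of other cells were scarce but not equal. The 14 B cell markers summed to 78.1 to 109 CPM in D1 and 47.3 to 56.0 CPM in RIP8, with Ms4a1, Pax5, Blnk, Ebf1 and Jchain among those at 0 in all 5 runs. Of the untested B cell markers, 5 had a higher mean in D1 and 2 in RIP8. The latter were H2-Ab1 (1, 2 and 2 counts against 7 and 9) and H2-Eb1. The 16 myeloid markers summed to 115 to 128 CPM against 47.3 to 70.1 CPM, with Lyz2, Adgre1, S100a8, S100a9 and Cd14 at 0. The 10 NK cell markers summed to 458 to 510 CPM against 235 to 277 CPM, with Ncr1, Klra8 and Gzma at 0. Most of that sum was Klrk1, the NKG2D receptor that activated CD8 T cells also display. Its 354, 395 and 365 CPM in D1 exceeded the 195 and 151 CPM in RIP8 (1.06 ± 0.19, adjusted p = 1.31e-05). Of the 9 CD4 T cell markers, summing to 217 to 271 CPM in D1 and 154 to 175 CPM in RIP8, Cd4 had at most 2 counts in a run. Zbtb7b, a factor of the CD4 lineage, was called, with 109, 100 and 79.0 CPM against 31.5 and 28.0 CPM (1.63 ± 0.36, adjusted p = 0.00047). It passed the filter through its D1 counts alone, so its direction was built in. The other tested CD4 markers, Foxp3 (−0.14 ± 0.35) and Gata3 (−0.09 ± 0.35), were not called and did not share its direction. The 7 Y-linked marker genes in the table had 0 counts in all 5 runs. The part of other cells in the differences below was not tested. In bulk RNA, fewer cells of a type and less RNA per cell cannot be told apart.

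Many UTRs differed between the sets. Of 20585 UTR rows, 13188 had a count in these runs and 4964 passed the filter on low counts. edgeR called 1488 of them at an adjusted p under 0.05, which is 30% of those tested. Of these, 734 (14.8%) were higher in D1 and 754 (15.2%) were higher in RIP8, and the median over all tested rows was −0.01 on the log2 scale. The sets did not overlap, every D1 run lying above or below both RIP8 runs, in 2610 rows (52.6%). Differences of over 2-fold were found in 337 called rows higher in D1 and 278 higher in RIP8, and of over 4-fold in 47 and 26. The biological coefficient of variation among runs of a set was 0.0666, a spread close to counting noise. In a fit of all 9 usable runs as 4 groups it was 0.345, and no row was called for the same comparison (947 of 8265 at an unadjusted p under 0.05). DESeq2 called 588 rows, each of which edgeR called in the same direction.

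**Figure D2:**
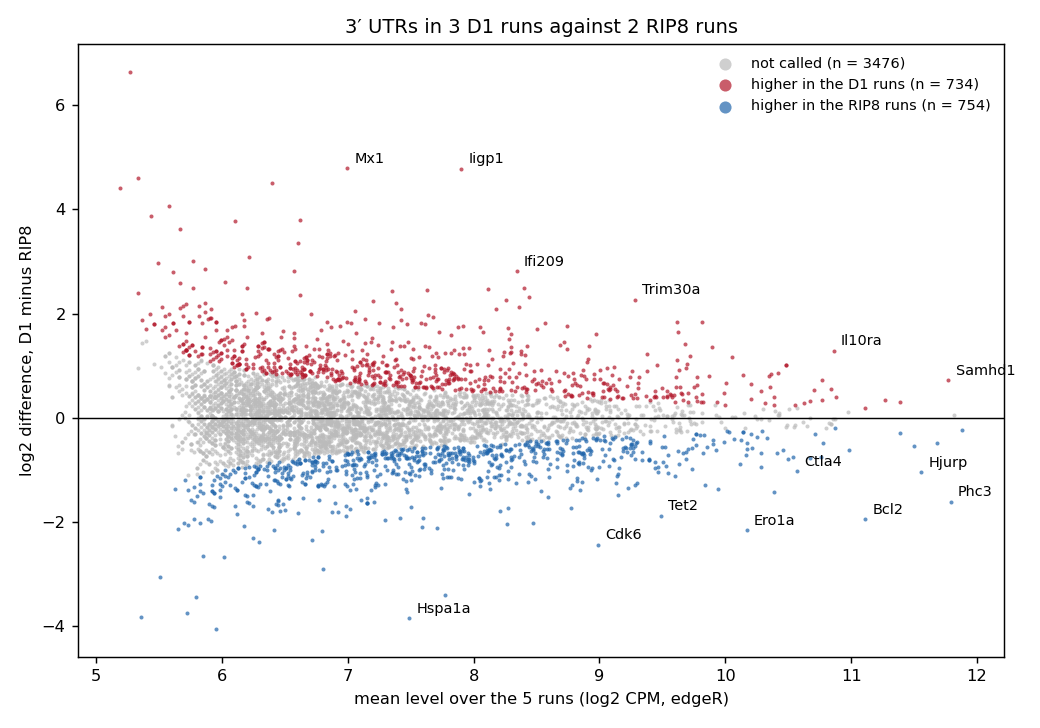
Log2 difference, D1 minus RIP8 (vertical axis), against the mean level over the 5 runs in log2 CPM (horizontal axis), with 1 point for each of 4964 UTR rows. Called rows are red (734 higher in D1) or blue (754 higher in RIP8), and the labels show that Iigp1 and Mx1 lie near a log2 difference of 4.8 and Hspa1a near −3.8.

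Genes of the interferon response led the UTRs that were higher in D1. Among the 15 D1-higher genes with the smallest p, Trim30a, Iigp1, Trim25, Ifi209, Ifi203, Irgm2, Mx1, Apobec3 and Samhd1 are known as interferon-inducible or antiviral. Il10ra, Ipcef1, Zbtb1, Mlec and Pou6f1 were also among the 15. Iigp1, an immunity-related GTPase that attacks the vacuoles of intracellular pathogens, had 359, 385 and 415 CPM in D1 and 18.9 and 7.01 CPM in RIP8. Every D1 run was far above both RIP8 runs, which rested on 6 and 2 counts, and the fitted fold was 27.5 (log2 difference 4.78 ± 0.32, adjusted p = 2.75e-17). Mx1, a dynamin-like GTPase known for blocking influenza virus, had 208, 230 and 168 CPM against 6.30 and 7.01 CPM. That is a 27.7-fold difference (4.79 ± 0.41, adjusted p = 3.09e-13), again with just 2 counts in each RIP8 run.

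Trim30a, a tripartite-motif protein (3′ UTR start at 104409025 on chromosome 7), had 807, 930 and 883 CPM in D1 and 183 and 172 CPM in RIP8, a 4.81-fold difference. Trim25, the ubiquitin ligase that helps the RNA sensor RIG-I signal (start at 89016722 on chromosome 11), had 1161, 1125 and 839 CPM against 306 and 263 CPM. The lowest D1 value, in the WT IP run, was still above both RIP8 runs. Ifi209 and Ifi203 belong to the Ifi200 family of DNA-binding proteins. They differed by 7.06-fold and 5.59-fold, from 450 to 508 CPM and 432 to 585 CPM in D1 to at most 91.4 CPM in RIP8. Irgm2, a regulator of immunity-related GTPases, had 468 to 533 CPM in D1 and 94.6 to 97.7 CPM in RIP8.

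Abundant antiviral enzymes differed less. Samhd1, a nucleotide hydrolase that starves retroviruses of DNA precursors, had 3430, 3979 and 3933 CPM against 2253 and 2231 CPM (log2 difference 0.72 ± 0.06, adjusted p = 9.56e-13). Apobec3, a cytidine deaminase that restricts retroviruses, had 1176, 1320 and 1293 CPM against 583 and 515 CPM. Il10ra, the ligand-binding chain of the IL-10 receptor (start at 45253840 on chromosome 9), had 2285, 2259 and 2201 CPM against 876 and 928 CPM. It had the smallest p of all D1-higher genes (1.29 ± 0.08, adjusted p = 5.15e-18), and all 3 D1 runs lay far above both RIP8 runs. Zbtb1, a transcription factor needed for lymphocyte development, and Ipcef1, a partner of cytohesin exchange factors, were 2.55-fold and 3.15-fold higher in D1. Mlec, a lectin of the endoplasmic reticulum, and Pou6f1, a homeodomain factor, were 2.02-fold and 4.77-fold higher.

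Promoters were searched for the paired letters that interferon regulatory factors are known to bind. The letters were TTTCNNTTTC or, on the other strand, GAAANNGAAA, searched in the RefSeq windows from 250 bases before to 50 bases after each gene start (GRCm38.p6). The search was chosen after the called genes had been seen. The following 30-base stretches are examples from genes called higher in D1, shown because their promoters held a match. They have the matched letters in capitals and read 5′ to 3′ on the gene's strand.
Trim30a, chr7:104465210-104465239, minus strand: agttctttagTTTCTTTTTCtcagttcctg
Ifi203, chr1:173942508-173942537, minus strand: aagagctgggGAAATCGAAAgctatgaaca
Irgm2, chr11:58214903-58214932, plus strand: tccaggaactGAAACTGAAAgctgttcggg
Apobec3, chr15:79892258-79892287, plus strand: catcagttagTTTCCCTTTCtctttgcgat
Oas3, chr5:120777715-120777744, minus strand: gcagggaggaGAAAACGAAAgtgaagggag
Rsad2, chr12:26456553-26456582, minus strand: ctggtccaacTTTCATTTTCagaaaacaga
Gbp7, chr3:142530273-142530302, plus strand: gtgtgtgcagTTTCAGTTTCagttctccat

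The capitals begin 36 bases before the gene start in Trim30a, 35 in Ifi203, 64 in Irgm2 and 140 in Apobec3. They begin 75 bases before it in Oas3, 120 in Rsad2 and 53 in Gbp7. The letters occurred in 12 of the 21 promoters matched for the interferon list and in 4 of the 11 matched for the 15 leading D1-higher genes. They occurred in 1079 of 27025 genes with a promoter in the table (3.99%), and 1131 of all 32851 windows (3.44%) held them. Among tested genes the share was 4.19% of 3774, against 7.94% of 529 genes called higher in D1 and 2.06% of 582 called higher in RIP8. None of the 14 matched promoters of the leading RIP8-higher genes held them. A match is a description of letters, not a bound site.

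In the list of interferon-induced genes every called member was higher in D1. Of 27 members in the table, 14 passed the filter, 12 were called higher in D1 and none higher in RIP8, beside 14.8 and 15.2% of all tested rows. The median log2 difference of the 14 was 1.30, against −0.01 for all rows. The called members included the dynamin-like Mx1, the oligoadenylate synthetases Oas2 and Oas3, Rsad2 (viperin), Ifit2, the nucleic acid sensor Zbp1, Usp18, Irf9, Samhd1, Gbp4 and Gbp7. Rsad2 had 38, 20 and 27 counts in D1 and 5 and 3 in RIP8 (log2 difference 3.35 ± 0.42), and Zbp1 had 15, 10 and 21 counts against 5 and 1. Gbp4, a guanylate-binding protein, had 677, 765 and 809 CPM against 416 and 375 CPM (0.89 ± 0.13, adjusted p = 3.76e-07). Stat2 (0.40 ± 0.20, adjusted p = 0.12) and Gbp5 (0.94 ± 0.39, adjusted p = 0.064) did not pass. The 13 members that were not tested had at most 12 counts in any run, and the mean was higher in D1 for 11 of them and in RIP8 for Isg20 and Ifi35. A gene that passes the filter through its D1 counts alone had to differ, so the tested members do not stand for the list. DESeq2 called 9 of the 14 higher in D1, and 10 were called without the RIP8 WT input run.

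The 15 RIP8-higher genes with the smallest p were Phc3, Bcl2, Ero1a, Hjurp, Tfrc, Cdk6, Tet2, Hspa1a, Hspa1b, Malt1, Ctla4, Pkm, Clcn3, Egln3 and Gas2l3. Phc3, a subunit of Polycomb repressive complex 1 (start at 30899295 on chromosome 3), had 1676, 1744 and 1722 CPM in D1 and 4947 and 5283 CPM in RIP8. The 2 sets were tight and far apart (log2 difference −1.61 ± 0.06, adjusted p = 5.83e-27). Bcl2, which holds back apoptosis at mitochondria (start at 106538178 on chromosome 1), had 880, 910 and 888 CPM against 3251 and 3486 CPM, a 3.85-fold difference. Cdk6, a kinase that drives cells from G1 to S phase (start at 3520792 on chromosome 5), had 135, 160 and 148 CPM against 810 and 753 CPM, a 5.39-fold difference. Tet2, a dioxygenase that oxidises methylcytosine, had 302, 300 and 266 CPM against 948 and 1131 CPM.

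Ero1a, the oxidase that forms disulfide bonds in the endoplasmic reticulum and is known to respond to low oxygen, had 416, 400 and 405 CPM in D1 and 1906 and 1629 CPM in RIP8 (−2.15 ± 0.10, adjusted p = 1.35e-22). Egln3, a prolyl hydroxylase of the HIF pathway, had 182, 210 and 168 CPM against 573 and 634 CPM. Tfrc, the transferrin receptor that brings in iron, had 723, 740 and 612 CPM against 1837 and 1769 CPM. All 3 genes were between 2.67-fold and 4.44-fold higher in RIP8. Hspa1a and Hspa1b, which encode the inducible Hsp70 chaperone, are near-identical neighbours on chromosome 17, so reads can be split between them and their separate values are uncertain. Together they had 10, 10 and 12 counts in D1 (50 to 59.2 CPM) and 215 and 171 counts in RIP8 (677 and 599 CPM). Hjurp, which loads the centromeric histone, had 1790, 1804 and 2018 CPM against 3664 and 3895 CPM. Gas2l3, a linker of actin and microtubules, was 4.06-fold higher in RIP8, and Clcn3, a chloride-proton exchanger of endosomes, 2.79-fold. Malt1, the protease that carries antigen receptor signals to NF-κB, had 458, 515 and 568 CPM against 1232 and 1363 CPM.

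**Figure D3:**
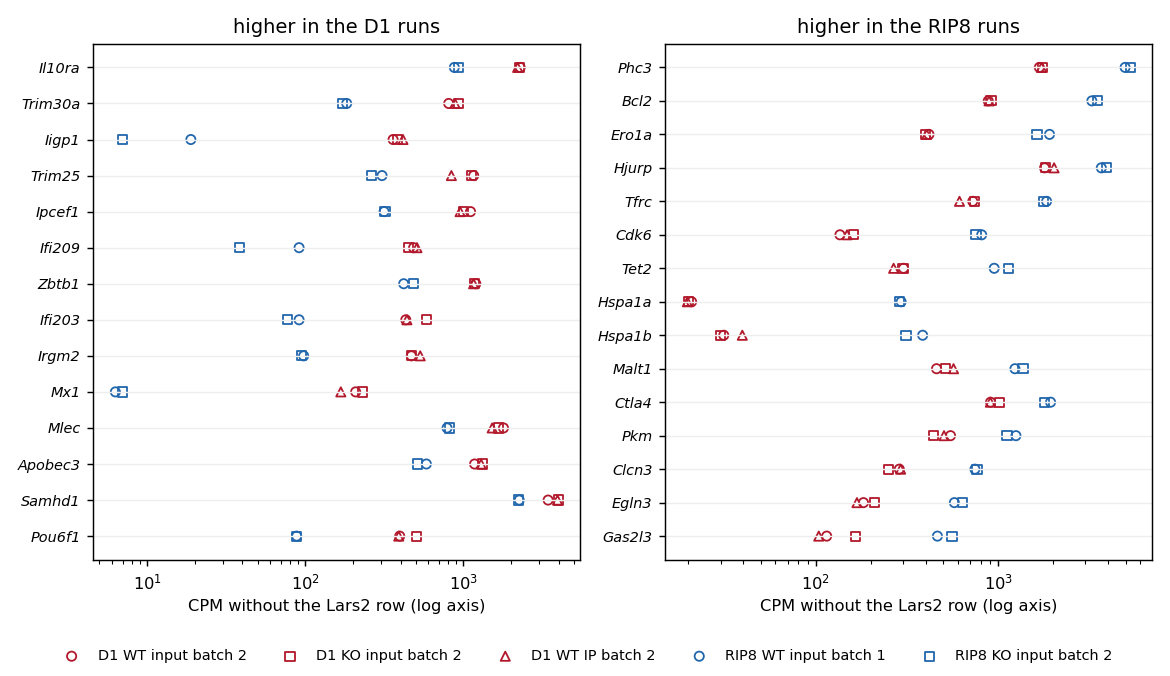
CPM without the Lars2 row (horizontal log axis) of genes among the 15 with the smallest p in each direction, with 1 symbol for each of the 5 runs, D1 in red and RIP8 in blue. The genes were picked for a small p and for sets that do not overlap, so the gap between red and blue follows from the choice; Iigp1, for example, is at 359 to 415 CPM in D1 and at 7.01 and 18.9 CPM in RIP8.

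Glycolysis was the list with most RIP8-higher members. Of 22 genes, 19 were tested, 16 were called higher in RIP8 and none higher in D1, beside 15.2 and 14.8% of all tested rows. The median log2 difference was −0.99, and all 19 differences were below 0. Pkm, the pyruvate kinase gene (start at 59678835 on chromosome 9), had 546, 440 and 503 CPM in D1 and 1248 and 1114 CPM in RIP8 (−1.28 ± 0.11, adjusted p = 2.63e-13). Slc2a3, a glucose transporter, had 973, 920 and 1061 CPM against 1771 and 1562 CPM (−0.79 ± 0.09, adjusted p = 5.65e-10). The other called members were the transporters Slc2a1 and Slc16a3 and the enzymes Hk1, Hk2, Gpi1, Pfkm, Pfkp, Aldoc, Tpi1, Pgk1, Pgam1, Eno1, Eno1b and Ldha. Hk1, Pfkm and Aldoc passed the filter through their RIP8 counts alone, so their direction was built in. Reads of Eno1 and its copy Eno1b cannot be told apart with certainty. Pfkl (−0.04 ± 0.23), Aldoa (−0.22 ± 0.22) and Slc16a1 (−0.20 ± 0.25) did not pass. Of the 3 untested members Ldhb was at 0, and Gapdh and Eno3 had at most 7 counts in a run. DESeq2 called 10 of the 19, and 13 were called without the RIP8 WT input run.

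Among IL-2 and costimulatory receptors, 4 of 10 tested genes were higher in RIP8 (40%) and 2 higher in D1 (20%), beside 15.2 and 14.8% of all tested rows. Il2ra, the high-affinity chain of the IL-2 receptor, had 677, 690 and 745 CPM in D1 and 996 and 1114 CPM in RIP8 (−0.61 ± 0.10, adjusted p = 6.94e-06). Tnfrsf9, the costimulatory receptor 4-1BB, had 484, 485 and 434 CPM against 848 and 893 CPM. Cd28 itself, at 1353, 1464 and 1505 CPM against 1260 and 1209 CPM, did not pass (adjusted p = 0.0793), although its sets did not overlap. The other called members were Il2rb and Icos, higher in RIP8, and Cd27 and Cd44, higher in D1. Cd44 passed the filter through its D1 counts alone, so its direction was built in.

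Of the inhibitory receptors, 3 of 8 tested were higher in D1 and 1 was higher in RIP8, beside 14.8 and 15.2% of all rows. DESeq2 called none of them higher in D1, and 1 was without the RIP8 KO input run. Ctla4, which competes with CD28 for its ligands, was the RIP8-higher member, with 906, 1010 and 903 CPM in D1 and 1931 and 1794 CPM in RIP8 (−1.02 ± 0.09, adjusted p = 1.05e-13). Cd160 had 78.1, 60 and 79.0 CPM against 28.4 and 14.0 CPM (1.69 ± 0.43, adjusted p = 0.00229), from at most 16 counts in a run. Pdcd1, which encodes PD-1, and Cd200 were also higher in D1, at 1 to 13 counts per run. Cd160, Pdcd1 and Cd200 passed the filter through their D1 counts alone, so their direction was built in. Vsir, an abundant inhibitory receptor gene, overlapped between the sets.

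Effector and transcription factor genes showed no common direction. Gzmb, the granule protease that kills target cells, had 291, 245 and 232 CPM in D1 and 545 and 466 CPM in RIP8 (−1.02 ± 0.16, adjusted p = 1.88e-06). Serpinb9, the inhibitor that shields killer cells from granzyme B, ran the other way, with 115, 145 and 178 CPM against 34.7 and 45.5 CPM (1.83 ± 0.31, adjusted p = 6.68e-06). Of 7 effector genes tested, 2 were higher in D1 and 1 in RIP8, beside 14.8 and 15.2% of all rows. DESeq2 called 1 each way. The D1-higher members, Serpinb9 among them, passed the filter through their D1 counts alone, so their direction was built in. Among T cell transcription factors, 5 of 26 were higher in D1 (Bach2, Zeb2, Tbx21 and Stat5a among them) and 5 were higher in RIP8 (Irf4, Id2, Nfatc2, Zeb1 and Nfkb1). These shares of 19.2% each are near the 14.8 and 15.2% of all rows. Bach2, a repressor that keeps T cells from terminal differentiation, had 562, 645 and 627 CPM against 337 and 280 CPM, whereas Runx3, which sets the CD8 lineage, had 973, 1090 and 1081 CPM against 901 and 1026 CPM and was not called. Of the immediate early genes, Jund, Ier2 and Dusp2 among 11 tested were higher in D1 and none in RIP8, beside 14.8 and 15.2% of all rows. DESeq2 called none of the 11, and 1 was called without the RIP8 KO input run.

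In the list of KRAB repressor and chromatin genes, 9 of 21 tested members were higher in RIP8 (42.9%) and 2 higher in D1 (9.52%), beside 15.2 and 14.8% of all rows. DESeq2 called 5 higher in RIP8, as did edgeR without the D1 WT input run. Suz12, a core subunit of Polycomb repressive complex 2, had 276, 340 and 296 CPM in D1 and 731 and 680 CPM in RIP8 (−1.24 ± 0.14, adjusted p = 6.26e-10). Cbx5, which encodes the heterochromatin protein HP1α, had 2222, 2094 and 2265 CPM against 2848 and 3363 CPM. The histone methyltransferase gene Kmt2a went the other way, with 1353, 1310 and 1204 CPM against 848 and 914 CPM. In the mitosis list 6 of 20 were higher in RIP8 (30% of them) and 1, Cdc25b, was higher in D1, and DESeq2 called 3 higher in RIP8. Kif11, the kinesin that separates spindle poles, was 2.55-fold and Anln, the anillin of the cleavage furrow, 2.56-fold higher in RIP8. Of 16 DNA replication genes tested, Mcm3 and Orc6 were higher in RIP8 (12.5%, under the share of all rows) and none in D1. Orc6 passed the filter through its RIP8 counts alone. In the actin list 7 of 25 were higher in RIP8 (28%) and none in D1, among them Actb at 2593 and 1839 CPM in RIP8 against 1442 to 1555 CPM in D1.

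Of 35 splicing regulators tested, 13 were higher in RIP8 (37.1%) and 4 higher in D1 (11.4%), beside 15.2 and 14.8% of all rows. DESeq2 called 3 each way, and 6 were called higher in RIP8 without the D1 KO input run or without the RIP8 WT input run. Srsf1 and Srsf6, both serine-arginine splicing factors, moved in opposite directions. Srsf1 had 2097, 2179 and 2315 CPM in D1 and 2552 and 2732 CPM in RIP8 (−0.30 ± 0.07, adjusted p = 0.00061), and Srsf6 had 1062, 1035 and 1022 CPM against 570 and 592 CPM (0.81 ± 0.11, adjusted p = 3.7e-08). Hnrnpa2b1, one of the most abundant UTRs, had 3279, 3279 and 3395 CPM against 3144 and 3072 CPM and was not called (adjusted p = 0.446).

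Of 20 polyadenylation and deadenylation factors tested, 5 were higher in RIP8 (25%) and 3 higher in D1 (15%), beside 15.2 and 14.8% of all rows, and DESeq2 called 2 each way. Pan3, a subunit of a poly(A) nuclease, had 370, 535 and 424 CPM in D1 and 926 and 743 CPM in RIP8 (−0.95 ± 0.13, adjusted p = 1.45e-07). The antiproliferative deadenylation adaptors Btg1 and Btg2 were higher in D1, Btg2 with 599, 575 and 661 CPM against 331 and 343 CPM (0.83 ± 0.14, adjusted p = 7.1e-06). Neither of the 2 tested CPEB genes, Cpeb4 and Cpeb2, was called. Of 16 AU-rich element, Pumilio and Roquin regulators tested, 3 were higher in D1 (18.8%) and 2 in RIP8 (12.5%), near the shares of all rows. None was called higher in D1 by DESeq2, with the D1 runs summed, without the D1 WT IP run or without the RIP8 KO input run, and 4 were higher in RIP8 in the last of these. Pum2, a Pumilio repressor, had 463, 390 and 395 CPM against 715 and 683 CPM.

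Among cytosolic ribosomal protein genes 31 of 82 were tested, 8 were higher in D1 (25.8%) and 1 in RIP8 (3.23%), beside 14.8 and 15.2% of all rows. DESeq2 called 2 higher in D1, and 4 were without the RIP8 WT input run. Rpl41 had 526, 530 and 602 CPM in D1 and 328 and 277 CPM in RIP8, and reads of these genes can come from their many pseudogenes. Translation factors had 3 of 19 higher in RIP8, a share of 15.8% that is near that of all rows, and none in D1. The helicase gene Eif4a2 was at 955 to 1105 CPM in D1 and 1733 and 1653 CPM in RIP8. Of 17 unfolded protein response genes, 4 were higher in D1 (23.5%) and 1 in RIP8 (5.88%), beside 14.8 and 15.2% of all rows. DESeq2 called 1 higher in D1, and 2 were without the D1 WT input run or without the RIP8 KO input run. Edem1, which passes misfolded proteins to degradation, had 1400, 1295 and 1446 CPM against 829 and 963 CPM. Of 8 replication-dependent histone genes tested, 3 were higher in RIP8 and none in D1, beside 15.2 and 14.8% of all rows. At least 1 of the 3 passed the filter through its RIP8 counts, and 30 further histone genes were not tested. DESeq2 called 0 of the 8, and 1 was called without the RIP8 KO input run. H1f4 ranged from 49.4 to 213 CPM within the D1 set alone. Proteasome genes (1 of 10 each way), respiratory chain genes (1 of 6 higher in D1), amino acid transport genes (2 of 16 each way) and Zfp genes (16 of 107 higher in D1, 10 in RIP8) were near or under the shares of all rows.

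**Figure D4:**
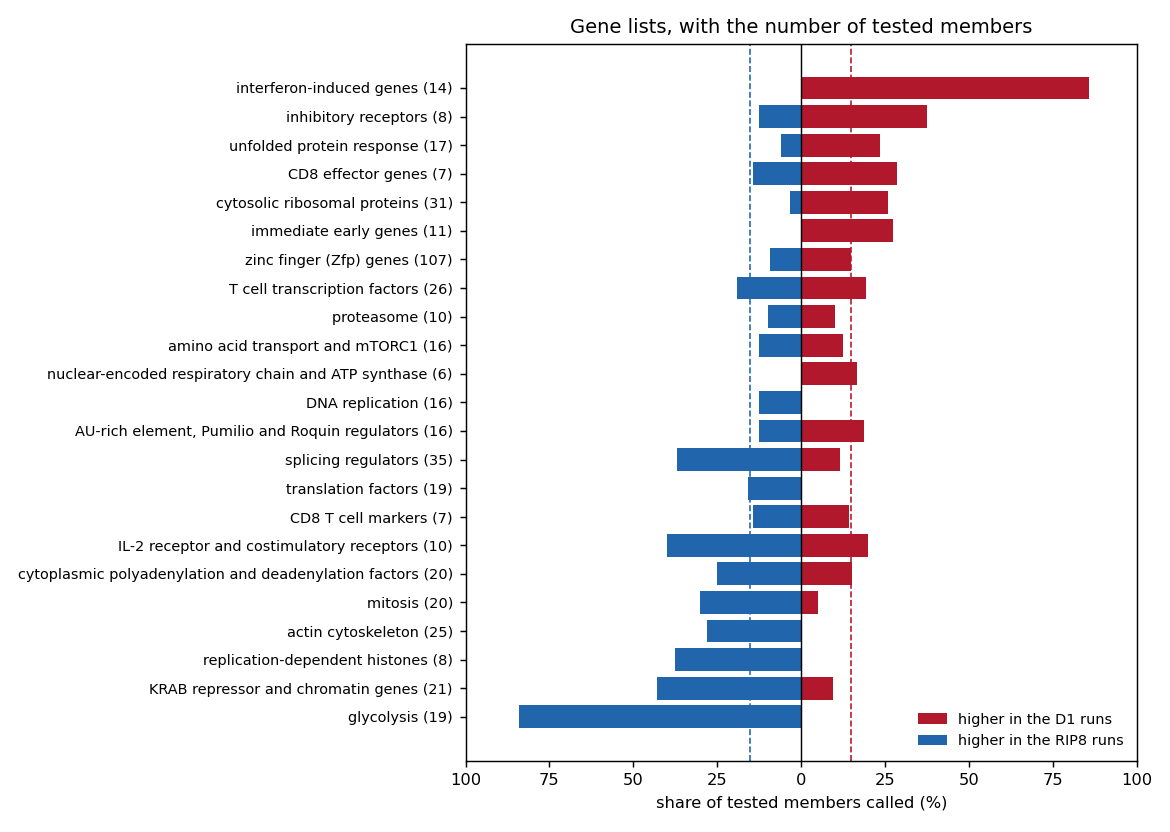
Share of the tested members of each gene list that were called (horizontal axis, %), to the right in red for higher in D1 and to the left in blue for higher in RIP8, for lists with at least 5 tested members, whose number stands in brackets. The dashed lines mark the 14.8 and 15.2% of all tested rows, and the bars for interferon-induced genes (85.7%) and glycolysis (84.2%) reach far past them. Some counted members passed the filter only through the set where they are higher, so their direction was built in.

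The 4 usable runs that the choice left out, all with under 30% in the Lars2 row, gave a separate look at the same experiment names. They were labelled D1 WT IP of batch 3, D1 KO IP of batch 2, D1 KO IP of batch 3 and RIP8 WT input of batch 2. No run is shared, but by their labels the WT IP library of D1 and the WT input library of RIP8 each have a run on both sides. These runs of the same label were not alike, with a chi-square per degree of freedom of 58.9 for D1 WT IP and 31.8 for RIP8 WT input. IP and input also differ between the names here. The D1 KO IP run of batch 3 stood apart from its name. Its chi-square per degree of freedom was 3.09 against the RIP8 run, 35.0 against D1 KO IP of batch 2 and 98.4 against D1 WT IP of batch 3. The remaining D1 runs were not a close pair either. D1 KO IP of batch 2 gave 46.9 against D1 WT IP of batch 3 and 44.5 against the RIP8 run. Because D1 KO IP of batch 3 was so close to the RIP8 run, results are given with and without it.

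With 3 D1 runs against 1 RIP8 run, edgeR called 0 of 11103 rows (0.0%), with 39 at an unadjusted p under 0.05. DESeq2 called 0 (274 at an unadjusted p under 0.05), as did limma voom (30). Without D1 KO IP of batch 3, 38 of 11000 rows (0.345%) were called, 19 in each direction, and 1679 had an unadjusted p under 0.05. Of 1481 rows called among the Lars2-rich runs, 1155 (78.0%) had the same direction in these runs, against 3173 of all 4948 rows (64.1%). The share was 78.1% of 1479 without the D1 KO IP run of batch 3. All 15 leading D1-higher and all 15 leading RIP8-higher genes kept their direction, and 14 and 15 did without that run, the exception being Mlec. A test of whether the difference between D1 and RIP8 itself differed between Lars2-rich and Lars2-poor runs called 0 of 8265 rows in edgeR, with 238 at an unadjusted p under 0.05.

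Single genes show this in their levels. Iigp1 had 408 and 382 CPM in D1 WT IP of batch 3 and D1 KO IP of batch 2, 14.2 CPM in D1 KO IP of batch 3 and 12.2 CPM in the RIP8 run. Trim30a had 909, 874, 167 and 156 CPM in the same order. For both genes the first pair matched the Lars2-rich D1 runs and the second the Lars2-rich RIP8 runs. Bcl2 had 1131, 887, 2441 and 1974 CPM, and Hspa1a had 2.00, 4.43, 107 and 97.2 CPM. The levels themselves were not shared for every gene. Mx1 had 20.3 and 55.0 CPM in the first pair, against 168 to 230 CPM in the Lars2-rich D1 runs, and Pkm had 2683 to 5440 CPM in these 4 runs, against 440 to 1248 CPM in the Lars2-rich runs. The tested interferon genes had a median log2 difference of 1.02 here, or 1.36 without D1 KO IP of batch 3, and the glycolysis genes −0.52 or −0.71. The median over all rows tested on both sides was −0.07, or −0.16 without that run.

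**Figure D5:**
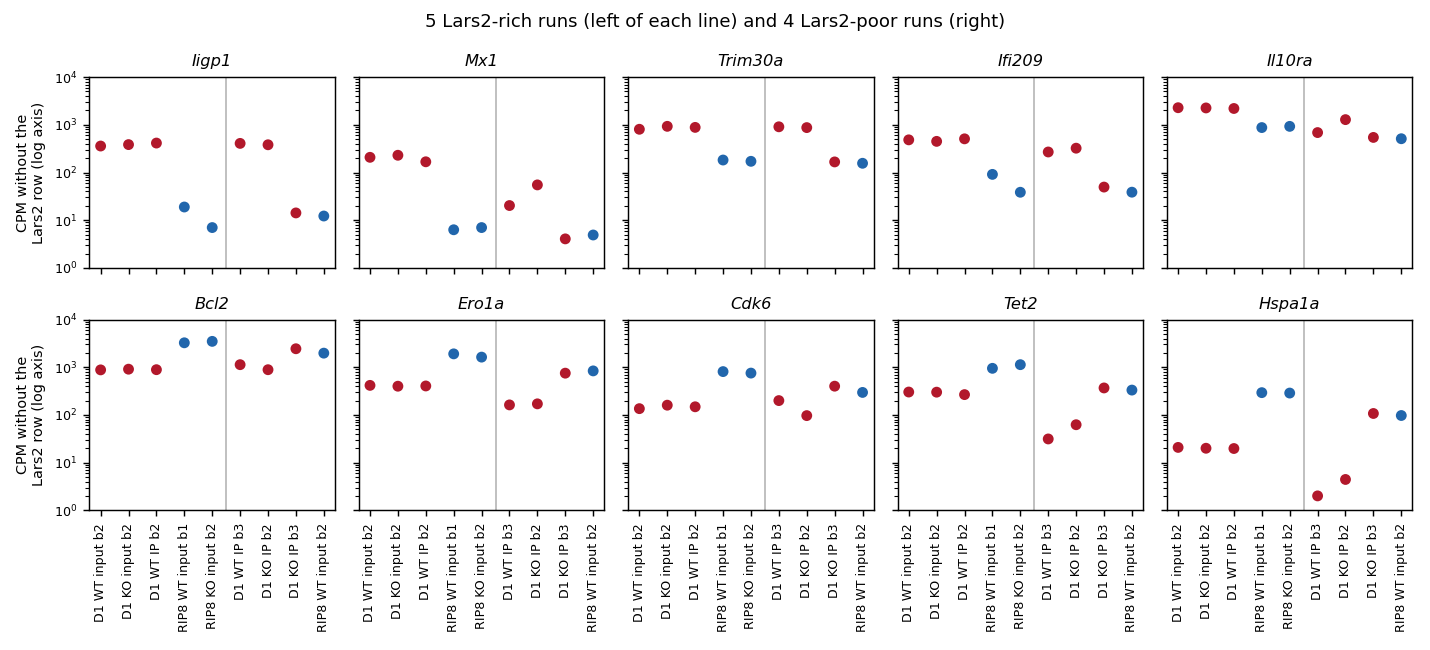
CPM without the Lars2 row (vertical log axis) of 10 genes in the 9 usable runs, D1 in red and RIP8 in blue, with the 5 Lars2-rich runs left of each line and the 4 Lars2-poor runs right of it. Iigp1 is at 359 to 415 CPM in 3 Lars2-rich and 382 to 408 CPM in 2 Lars2-poor D1 runs, while the D1 KO IP run of batch 3 (b3) lies at 14.2 CPM beside the RIP8 run.

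Features that played no part in choosing the runs also differed between the called rows. Genes higher in RIP8 spanned a median of 39.9 kb of genome from start to end (quartiles 19.6 and 72.8 kb, 724 rows with a gene). Genes higher in D1 spanned 24.0 kb (12.4 and 55.0 kb, 658 rows) and all tested genes 29.6 kb (14.6 and 62.5 kb, 4651 rows). Median summed counts were 213.5 for RIP8-higher, 162.5 for D1-higher and 122 for all tested rows, so called rows were deeper. No chromosome held the calls. The share called higher in D1 lay between 8.24% on chromosome 14 and 18.8% on chromosome 11, and the share called higher in RIP8 between 10.2% on chromosome 19 and 20.9% on the X chromosome, leaving out chromosome Y with 1 tested row.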

How the data were processed

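The deposited table holds raw read counts per 3′ UTR, 20586 rows by 20 runs, not pooled. The submitters' processing notes name featureCounts, R 3.5.1, Bowtie2 2.2.2, Bowtie 1.2.3 and mm10, without roles; how strand and multiply matching reads were handled is not stated there. Every column was matched to its sample by name, with 0 columns left over. In the first 9 columns, 21 of 43 neighbouring rows that share a UTR start held identical counts, and in the last 11 columns 0 of 29 did, so the values of those 11 were not used. Rows carry a transcript and a UTR start. Symbols were assigned from RefSeq genes of GRCm38, the same build, by position and row order, for 18727 rows (91.0%). UTR ends and sequences are not used here.

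Counts were tested in R 4.3.3 with edgeR 4.0.16 (TMM, filterByExpr at a minimum count of 10, quasi-likelihood F test, Benjamini-Hochberg over all tested rows) without the Lars2 row; each SE is the log2 difference over the square root of F, so it restates the test. A list member that passed the filter on low counts only through the set where it is higher had to differ. The counts per list include such members. The script was tested on simulated data. DESeq2 1.42.0, limma 3.58.1 voom, other normalizations, filters and run sets were alternatives. Named genes are Cpeb4, the 15 genes with the smallest p in each direction among called genes whose sets do not overlap, and per list the 2 tested members with most counts and the 2 called with the smallest p; members beyond these were named after their values had been seen. A gene with several rows is given by the row with most counts. The runs, lists and tests were chosen with earlier results of these data known. A few genes that entered the tests and counts are not reported here by name.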

Additional observations from a re-analysis of the deposited data

Results flagged for a closer look

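For each of the 30 leading genes, the CPM of the 6 usable D1 runs, Lars2-rich and Lars2-poor together, was screened for a run far from the others by Dixon's ratio, the gap to the nearest run over the whole range. In 7 genes 1 run stood apart, and in each it was the run labelled D1 KO IP of batch 3. It was low in the interferon-inducible genes Iigp1 (14.2 CPM, ratio 0.862) and Trim30a (167 CPM, ratio 0.839). It was high in Bcl2 (2441 CPM, ratio 0.839), Cdk6 (400 CPM, ratio 0.661), Egln3 (618 CPM, ratio 0.765), Hspa1a (107 CPM, ratio 0.821) and Hspa1b (130 CPM, ratio 0.719). Chance flags about 1 in 20 such groups, and genes of 1 run are not independent. In 27 of the 30 genes this run was nearer on the log2 scale to the Lars2-poor RIP8 run than to either other Lars2-poor D1 run, beside 77.0% of the 4964 tested rows. How the run came by its name was not tested.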

How the results depend on the processing

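No paired analysis was possible because the labels number no replicates and the sets hold 3 and 2 runs of different labels. The count of 1488 called rows (734 higher in D1, 754 in RIP8) was 1218 to 1522 with other size factors, filters, voom, the Lars2 row kept, identical rows counted once, inputs alone with the genotype label, or the D1 runs summed to 1 library (1267). DESeq2 called 588 rows (288 and 300), and the fit of all 9 usable runs called 0 (0 and 0; 947 at an unadjusted p under 0.05). In batch 2 alone, which is the same as leaving out the RIP8 WT input run, with 1 RIP8 run assumed to vary like D1, 1018 were called, 474 of them higher in D1. Leaving out 1 run at a time gave 1018 to 1290 called rows, 474 to 619 higher in D1 and 544 to 671 in RIP8, lowest without the RIP8 WT input run, where 8 of the called rows turned. Of 109 named genes none called turned, and 16 stayed on their side of the threshold under every setting. The fit of 9 runs called no row and so lost all 85 calls. Those 16 are therefore genes that were not called, and they show no stable difference. DESeq2 lost 19 calls. Median differences of the CD4 marker, CD8 effector, DNA replication and respiratory chain lists changed sign under 1 or more settings. For the Lars2-poor runs, leaving out a D1 run gave 0 to 38 called rows. With at least 50 summed counts the mean chi-square per degree of freedom rose from 1.39 to 1.58 within RIP8 and from 4.55 to 6.78 between sets. The causes were not tested. Depth limits the runs to 4964 of 20585 rows, so a gene not tested was not shown to be equal.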

Other observations

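Some gene groups were put together after the values had been seen, so their counts describe these runs and test nothing. A gene that passes the filter through the counts of 1 set alone had to differ. Of 13 sterol synthesis and uptake genes that passed the filter, 9 were called higher in RIP8 and none higher in D1. Of all tested rows, 15.2% were called higher in RIP8 and 14.8% higher in D1. Hmgcs1, which makes HMG-CoA, had 141, 150 and 98.7 CPM in D1 and 435 and 403 CPM in RIP8, and Stard4, a sterol carrier, 364, 320 and 316 CPM against 797 and 795 CPM. The untested enzymes Mvk, Fdps and Sqle had at most 5 counts in a run. Of 15 tested targets of the hypoxia factor HIF-1, 13 were higher in RIP8, beside 15.2% of all tested rows. Among them were the mitophagy receptor gene Bnip3 (16, 11 and 11 counts in D1, 77 and 85 in RIP8) and Pdk1, the kinase that closes pyruvate dehydrogenase (755 to 895 CPM against 1254 and 1233 CPM). Vegfa and Mxi1 were not called. Of 12 tested heat shock and chaperone genes 7 were higher in RIP8, beside 15.2% of all tested rows. Hsp90aa1 had 10, 18 and 9 counts against 72 and 67, whereas the constitutive Hspa8 (14, 12 and 20 counts against 14 and 21) was not called.

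A wider set of interferon-inducible genes, also put together after the values had been seen, holds several of the leading genes and shares Gbp4, Gbp5 and Gbp7 with the shorter list, so its direction is partly built in. Of 37 tested genes among the immunity-related and guanylate-binding GTPases, Ifi200, Slfn, Parp, Trim and sensor genes, 32 were higher in D1 and none higher in RIP8, with a median log2 difference of 1.70. Of all tested rows, 14.8% were called higher in D1 and 15.2% higher in RIP8. The called genes included Ifi213 (22, 29 and 25 counts against 1 and 2), Slfn1 (49, 54 and 65 against 18 and 12), Parp14 (96, 93 and 82 against 30 and 31), the kinase gene Eif2ak2 (65, 72 and 70 against 32 and 33) and Pml. Some, such as Ifi213, passed the filter through their D1 counts alone and had to differ. Gbp5, Gbp8, Tap1, Tap2 and Cd274 were tested and not called. The summed level of the 55 family members in the table was 13211 to 13825 CPM in D1 and 4442 and 4190 CPM in RIP8. In the Lars2-poor runs it was 11067 and 11150 CPM in D1 WT IP of batch 3 and D1 KO IP of batch 2, and 3742 and 3682 CPM in D1 KO IP of batch 3 and the RIP8 run.

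The RIP8 runs, WT input of batch 1 and KO input of batch 2, differed in a few abundant genes. Pabpc1, whose protein coats poly(A) tails, had 298 counts (939 CPM) in the first and 41 (144 CPM) in the second, with 57, 32 and 48 counts in D1. G3bp1, a stress granule protein, had 825 and 417 CPM, and Ddit4, an mTORC1 inhibitor, 696 and 333 CPM. These genes were picked after their values had been seen. Without the WT input run, Pabpc1, G3bp1, Hdgf, Cmip, Armc10, Snx22, Tagln2 and Nfkbia, all called higher in RIP8, turned to a difference above 0.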
